A study of Mus musculus with 6 samples.

Results

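The genes described here are 31 B lineage and antibody-secreting cell genes, antibody gene segments left out, measured by RNA sequencing in mouse colon. They were picked by symbol from a deposited table of 34745 genes, and all 31 symbols were found there once each. The tissue came from age-matched male mice of 2 groups, TRPC-hepta knockout and TRPC-hepta control, with 3 libraries in each. By the series title the knockout mice lack every TRPC protein, a family of cation channels in the cell membrane that let calcium in. Mice of both groups received DSS (dextran sulfate sodium, which damages the lining of the colon) for 6 days before they were killed. The age of the mice, the alleles, and whether each library came from a separate animal are not given in the labels, so the spread behind each p-value is that between libraries and may be technical. Colon from mice without DSS was not analysed here.

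B cells carry an antigen receptor made of membrane antibody and a pair of signalling chains. In the colon they gather in lymphoid patches and isolated follicles, where chemokines hold them in place and TNF family ligands keep them alive. Activated B cells can become plasma cells, which switch off much of the B cell programme and secrete large amounts of antibody. In the gut that antibody is mostly dimeric IgA, joined by the J chain and carried across the epithelium by the polymeric immunoglobulin receptor.

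The libraries held 13816295 to 17584992 counted reads. Knockout replicate 3 stood apart from an ordinary replicate. Its counts were close to 0.493 times those of knockout replicate 1 plus 0.593 times those of knockout replicate 2. The squared departure from this weighted sum, over the variance expected from counting, had a median of 1.20 across genes. The median was 3.12 to 4.26 when each control library was fitted on the others of its group. It compares libraries, and does not show that the departure was counting noise alone. Knockout replicate 3 lay between the others of its group in 72.9% of genes, whereas a control library did so in 28.6% to 36.3%. The main counts and list calls are therefore also given without it. Markers of colon epithelium were abundant in all 6 libraries, with summed levels of 13800 to 15190 CPM in the control and of 4829, 20960 and 13410 CPM in knockout replicates 1, 2 and 3 (CPM, read counts relative to the TMM-scaled library total). The sum was lowest in knockout replicate 1. The high sum of knockout replicate 2 came with Muc2, the goblet cell mucin, at 9315 CPM against 2367 to 3171 CPM in the control, while Epcam, at 1921 CPM, lay within its control range of 1913 to 2111 CPM.

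Most B cell genes were high in knockout replicates 2 and 3 and at or below control levels in knockout replicate 1. Ms4a1, which encodes the B cell surface protein CD20, stood at 7.79, 2.26 and 2.80 CPM in control replicates 1, 2 and 3 and at 2.10, 14.0 and 9.10 CPM in knockout replicates 1, 2 and 3. Cd22, an inhibitory co-receptor, stood at 5.93, 3.01 and 5.90 CPM and at 2.69, 17.5 and 11.2 CPM. Jchain, the joining chain of secreted IgA and IgM, stood at 182.8, 53.7 and 210.3 CPM and at 46.2, 329.6 and 232.8 CPM. In bulk tissue, fewer cells of a type and less RNA per cell cannot be told apart. For most members the groups overlapped. The quasi-likelihood test of edgeR, adjusted by Benjamini-Hochberg over all 15819 genes tested, placed 0 of the 30 members with enough reads past the threshold of 0.05, and 1.76% of all tested genes. At an unadjusted p under 0.05 there were 10 members, against 16.0% of all tested genes. Of these, 9 were higher in the knockout (9.48% of all tested genes) and 1 was lower (6.5%). This count rested on single libraries. Without control replicate 1, 2 or 3 it was 7, 5 or 3 (11.1%, 11.3% and 12.6% of all tested genes). Without knockout replicate 1, 2 or 3 it was 19, 7 or 4 (16.0%, 29.0% and 10.1%). Without knockout replicate 3, 0 members were past the adjusted threshold (0.093% of all tested genes) and the median log2 fold change of the members was 0.91. DESeq2 placed Mzb1, Prdm1 and Btk past its threshold, 3 of 31 members, all higher in the knockout, where 3.97% of the genes it fitted were higher and 6.47% passed in either direction. Of the 30 members, 26 had positive log2 fold changes, as did 51.6% of all tested genes. The median log2 fold change was 0.90 over the members and 0.01 over all tested genes.

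The pattern within the knockout group was the clearest feature of these genes. Knockout replicate 2 lay above all control libraries in 26 of 30 members (32.8% of all tested genes), knockout replicate 3 in 23 (33.5%) and knockout replicate 1 in 6 (38.4%). In 17 members knockout replicates 2 and 3 both lay above every control library while replicate 1 did not, a pattern that 5.79% of all tested genes had. In 21 members the level in knockout replicate 2 was at least 2-fold that in replicate 1 (12.1% of all tested genes), and only Ebf1 differed that far the other way (21.4%). Leaving knockout replicate 3 aside, replicate 2 lay above every control library and replicate 1 did not in 21 members and in 20.1% of all tested genes. The order of replicate 2 over 3 over 1 held in 25 members and in 36.2% of all tested genes, but replicate 3, close to a weighted sum of the others, adds little as a further replicate. These patterns were chosen after the values were seen. For Ms4a1 the gap between knockout replicates 1 and 2 was far beyond counting error. It had 32 reads in knockout replicate 1 and 192 in replicate 2. The exact 95% Poisson intervals, 1.44 to 2.96 and 12.1 to 16.1 CPM, cover counting error only. The gap was narrower in other members: for Blk the interval of replicate 1 ended at 3.345 CPM and that of replicate 2 began at 3.468 CPM. Epithelial marker RNA was also lowest in knockout replicate 1, and its part in the pattern was not tested.

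**Figure D1:**
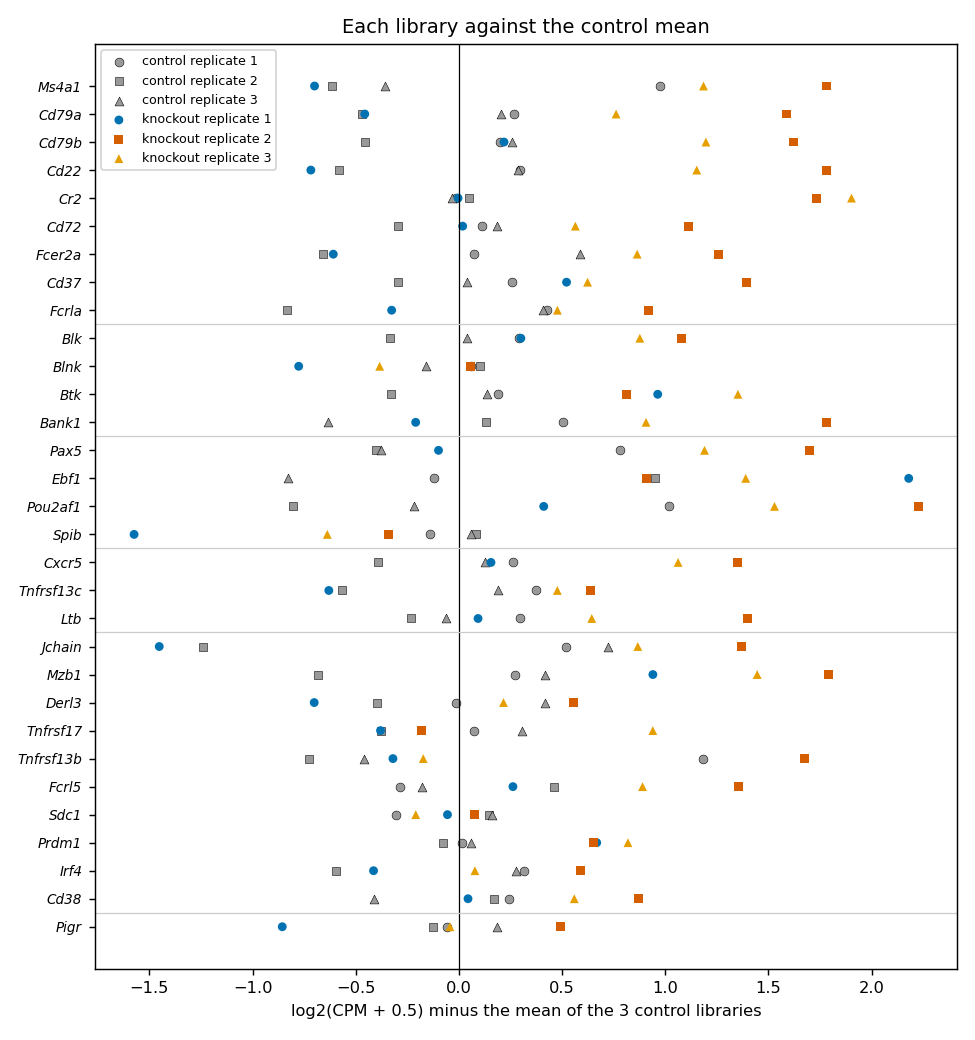
Level of each of the 31 genes in each library as log2(CPM + 0.5) minus the mean of the 3 control libraries (x axis, log2 units), one row per gene, with grey lines between roles. Grey symbols are control and coloured symbols knockout replicates; most B cell genes have replicates 2 and 3 to the right of the control symbols and replicate 1 among or below them.

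The members differed widely in abundance. Per length of transcript, on the scale of FPKM (reads scaled to transcript length and library total), Pigr had the highest level, with 730 ± 84.3 FPKM in the control and 732 ± 268.8 FPKM in the knockout (SD, n = 3 each). Cd38, a surface enzyme that breaks down NAD, followed at 119.5 ± 27.1 and 176.1 ± 36.0 FPKM. Jchain stood at 39.6 ± 22.1 and 55.01 ± 36.8 FPKM, Sdc1 at 31.9 ± 5.8 and 31.8 ± 2.7 FPKM and Blnk at 24 ± 2.3 and 19.8 ± 4.1 FPKM. Genes that mark B cells more strictly were far lower. Cd79a had 3.21 ± 0.89 FPKM in the control and 6.05 ± 3.65 FPKM in the knockout, and Ms4a1 had 0.494 ± 0.347 and 0.992 ± 0.660 FPKM. Pigr, Sdc1, Cd38, Blnk, Btk, Cd37, Cd72, Ltb, Ebf1, Prdm1 and Irf4 are also made by other cells of the colon, among them epithelium, T cells, myeloid cells and stroma. Their reads therefore need not come from B cells or plasma cells. The same holds for Spib, which M cells and plasmacytoid dendritic cells also make. Tnfrsf17 had the fewest reads, 8 in the control and 13 in the knockout group, and was the 1 member that did not pass the filter on low counts.

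**Figure D2:**
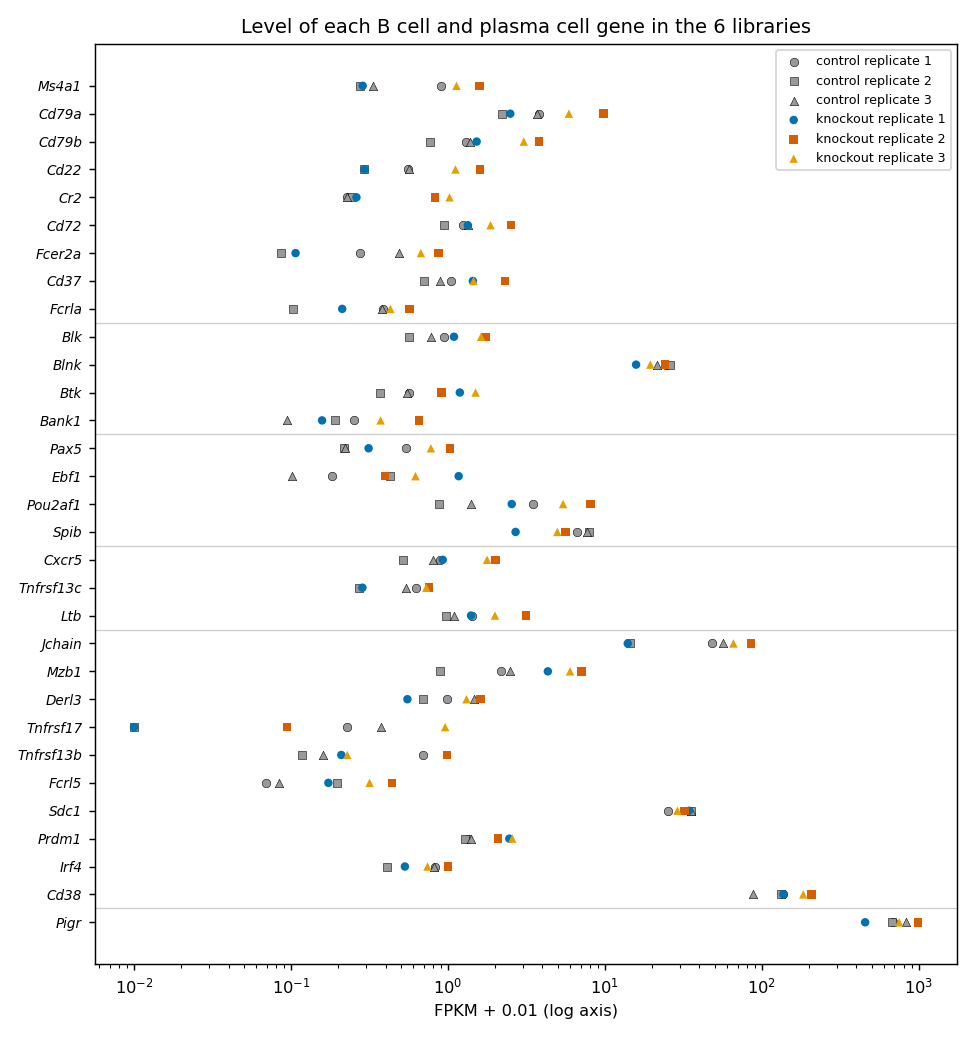
Level of each gene per transcript length, as FPKM + 0.01 on a log axis, in each of the 6 libraries. Pigr and Cd38 are the most abundant members, and the strict B cell genes lie mostly between 0.1 and 10 FPKM.

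The 9 surface proteins of B cells all had positive fold changes, and 0 of them passed the test. Cd79a and Cd79b encode the signalling chains of the B cell receptor. Cd79a (GRCm38 chromosome 7, 24897381 to 24902197) stood at 5.75, 3.24 and 5.47 CPM in control replicates 1, 2 and 3 and at 3.28, 15.1 and 8.29 CPM in the knockout replicates. Cd79b (chromosome 11, 106311341 to 106314762) stood at 2.84, 1.62 and 2.98 CPM and at 2.89, 8.46 and 6.17 CPM. For both, knockout replicate 1 fell within the control range and the others lay above it. The log2 fold change was 0.88 ± 0.55 for Cd79a (SE, adjusted p = 0.502) and 1.23 ± 0.46 for Cd79b (adjusted p = 0.263). Ms4a1 (chromosome 19, 11249675 to 11266241) had a log2 fold change of 0.97 ± 0.75 (adjusted p = 0.596). Here control replicate 1, at 7.79 CPM, was nearer to knockout replicate 3 than to the other controls. Cd22 (chromosome 7, 30865402 to 30880342) had a log2 fold change of 1.08 ± 0.65 (adjusted p = 0.483).

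Cr2, the complement receptor CD21 of follicular B cells and follicular dendritic cells, had the steadiest control level of the B cell genes. It stood at 2.47, 2.60 and 2.43 CPM in the control replicates and at 2.49, 9.49 and 10.7 CPM in the knockout replicates (chromosome 1, 195136811 to 195176716). Knockout replicate 1 lay within the control range, and the others lay far above it. The log2 fold change was 1.59 ± 0.53 (edgeR adjusted p = 0.209). Without knockout replicate 1 Cr2 passed the threshold (log2 fold change 2.01, adjusted p = 0.0203), 1 of 30 members where 1.99% of all tested genes did. Fcer2a, the low-affinity IgE receptor CD23, had 3 to 18 reads in a control library and 3, 28 and 23 in the knockout replicates, a ratio of CPM of 10.4 between knockout replicates 2 and 1. Fcrla, an Fc receptor-like protein kept inside B cells, stood at 1.67, 0.405 and 1.64 CPM and at 0.787, 2.55 and 1.75 CPM, with overlapping groups and a log2 fold change of 0.45 ± 0.65 (adjusted p = 0.797). Cd72, a C-type lectin co-receptor, ranged from 6.13 to 8.75 CPM in the control and from 7.74 to 17.1 CPM in the knockout. Cd37, a tetraspanin of leukocytes, ranged from 4.80 to 7.29 and from 8.85 to 16.6 CPM. Cd37 was 1 of 5 members whose knockout libraries all lay above the controls (11.2% of all tested genes), with Blk, Btk, Mzb1 and Prdm1. Its log2 fold change of 0.94 ± 0.32 was not past the threshold (adjusted p = 0.219). Exons of Cd22, Cd72 and Cd37 overlap those of genes on the other strand. The sources used here do not say whether counting was by strand, which leaves these values uncertain.

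Among the kinases and adaptors behind the receptor, Blk and Bank1 had the pattern of the surface genes and Blnk and Btk had others. Blk, a Src family kinase of B cells, stood at 2.41, 1.39 and 1.94 CPM in the control and at 2.43, 4.52 and 3.87 CPM in the knockout. The lowest knockout value lay just above the highest control value, and the log2 fold change was 0.91 ± 0.37 (adjusted p = 0.295). Bank1, a scaffold protein with ankyrin repeats, stood at 2.47, 1.79 and 0.851 CPM and at 1.31, 6.71 and 3.43 CPM. Its groups overlapped, with a log2 fold change of 1.16 ± 0.66 (adjusted p = 0.459). Btk, the tyrosine kinase that activates phospholipase C in B cells and is also made by myeloid cells, stood at 2.29, 1.45 and 2.19 CPM and at 4.26, 3.79 and 5.74 CPM. All 3 knockout replicates of Btk, replicate 1 included, lay above the controls. Its log2 fold change was 1.22 ± 0.32 (edgeR adjusted p = 0.131; DESeq2 adjusted p = 0.0204). Summed macrophage and dendritic cell markers, 151.9 to 182.4 CPM in the control, were also high in every knockout library, at 424.2, 331.4 and 377.4 CPM, and their part in the level of Btk was not tested. Blnk, the adaptor that links Syk to Btk, stood at 159.8, 164.6 and 137.5 CPM and at 89.4, 159.4 and 117.5 CPM, lowest in knockout replicate 1. The log2 fold change of Blnk was -0.33 ± 0.23 (adjusted p = 0.535).

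The transcription factors of the lineage differed in their patterns. Pax5, which holds B cells to their identity, stood at 5.38, 2.08 and 2.13 CPM in the control and at 2.69, 10.6 and 7.29 CPM in the knockout. Pou2af1, a coactivator that joins octamer-binding factors at antibody promoters, stood at 9.27, 2.26 and 3.65 CPM and at 5.90, 22.03 and 13.4 CPM. Both had the pattern of the surface genes, with log2 fold changes of 1.10 ± 0.60 for Pax5 (adjusted p = 0.440) and 1.45 ± 0.65 for Pou2af1 (adjusted p = 0.345). Pax5 shares exon sequence with genes on the other strand. Ebf1, an early B cell factor that stromal and fat cells also make, had the reverse order, with 2.10, 4.97 and 1.09 CPM in the control and 12.3, 4.82 and 6.92 CPM in the knockout. It was highest in knockout replicate 1, where most B cell genes were lowest, and its log2 fold change was 1.55 ± 0.61 (adjusted p = 0.282). Spib, an Ets factor of B cells, plasmacytoid dendritic cells and M cells, was the 1 member whose knockout libraries all lay below the controls (10.4% of all tested genes). It stood at 22.5, 26.3 and 25.8 CPM in the control and at 8.001, 19.5 and 15.8 CPM in the knockout, with a log2 fold change of -0.79 ± 0.32 (adjusted p = 0.292). Within the knockout group, Spib had the order of replicate 2 over 3 over 1. Most members had that order, Pigr included, and so did the median of the colon epithelium markers.

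The start regions of Bank1, Spib and Cr2 are shown because these genes share a B lineage role but differed in direction or in the library that was highest. Each sequence is the 150 bases before the RefSeq start on GRCm38.p6, 5′ to 3′ on the gene's own minus strand, and holds no GENCODE exon. Capitals mark CCCNNGGG, the core letters of the EBF motif, which read the same on both strands.
Bank1, chr3:136326067-136326216: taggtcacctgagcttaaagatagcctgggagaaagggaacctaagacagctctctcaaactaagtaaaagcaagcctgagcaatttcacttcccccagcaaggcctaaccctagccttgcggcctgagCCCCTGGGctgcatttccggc
Spib, chr7:44532072-44532221: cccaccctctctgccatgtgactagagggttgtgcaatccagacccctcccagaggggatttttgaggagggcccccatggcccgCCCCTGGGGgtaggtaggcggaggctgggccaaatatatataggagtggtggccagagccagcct
Cr2, chr1:195176720-195176869: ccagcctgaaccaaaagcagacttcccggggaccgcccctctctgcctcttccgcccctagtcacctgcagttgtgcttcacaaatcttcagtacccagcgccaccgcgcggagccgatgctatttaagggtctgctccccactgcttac
Bank1 and Spib hold the same 8 letters, in Spib as a pair of overlapping matches, although Bank1 was high and Spib low in knockout replicate 2 relative to the controls. Cr2 has no match in this window. Over the 250 bases before the start, CCCNNGGG was found in 4 of the 26 members in the promoter table (Bank1, Cd22, Sdc1 and Spib) and in 13.4% of all 27025 genes there. The octamer ATGCAAAT, searched on both strands, was found in 1 member, Blnk, and in 1.81% of all genes, and GAGGAAGT, a PU.1 core, in Cd37 and Cd72 and in 2.79%. These counts are small, and a match is a description of letters only.

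The 3 genes of follicle position and B cell survival were also highest in knockout replicate 2. Cxcr5, the receptor for the chemokine CXCL13 that leads B cells into follicles, stood at 2.66, 1.504 and 2.37 CPM in the control and at 2.43, 6.20 and 4.99 CPM in the knockout. The log2 fold change of Cxcr5 was 1.06 ± 0.43 (adjusted p = 0.298), and its exons overlap Bcl9l on the other strand. Tnfrsf13c, the BAFF receptor that keeps mature B cells alive, stood at 2.35, 0.983 and 2.01 CPM and at 0.918, 2.92 and 2.56 CPM. Knockout replicates 2 and 3 exceeded the highest control by little, and the log2 fold change of 0.26 ± 0.54 (adjusted p = 0.864) turned to -0.04 without control replicate 2 and to -0.03 without knockout replicate 2. Ltb, the lymphotoxin chain with which lymphocytes organise follicle stroma, ranged from 3.41 to 5.13 CPM in the control and stood at 4.39, 11.6 and 6.67 CPM in the knockout. For Ltb the log2 fold change was 0.86 ± 0.40 (adjusted p = 0.358).

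Plasma cell genes differed among themselves. Jchain (chromosome 5, 88519809 to 88527891) was far lower in control replicate 2 than in the other controls, and 7.13 times higher in knockout replicate 2 than in replicate 1. Its log2 fold change was 0.45 ± 0.75 (adjusted p = 0.826), and -0.10 without knockout replicate 2. Mzb1, a chaperone of antibody assembly in the endoplasmic reticulum, stood at 2.04, 0.810 and 2.31 CPM in the control and at 3.54, 6.79 and 5.24 CPM in the knockout. Unlike Jchain, Mzb1 was above every control in knockout replicate 1 too. Its log2 fold change of 1.59 ± 0.47 was not past the threshold of edgeR (adjusted p = 0.162) and was past that of DESeq2 (adjusted p = 0.0271). Mzb1 had 14 to 93 reads in a library, and the annotation overlaps its exons with those of a neighbour on the same strand, so its value is uncertain. Derl3, which helps to remove misfolded proteins from the endoplasmic reticulum, stood at 1.36, 0.925 and 2.01 CPM and at 0.656, 2.26 and 1.68 CPM. Those groups overlapped, with a log2 fold change of 0.10 ± 0.54 (adjusted p = 0.954) that was -0.14 without control replicate 2 and -0.29 without knockout replicate 2. Fcrl5, an Fc receptor-like protein of B cells and plasma cells, had 4 to 13 reads in a control library and 9, 25 and 19 in the knockout replicates, with a log2 fold change of 1.44 ± 0.63 (adjusted p = 0.332). Tnfrsf17, the survival receptor BCMA, had 3, 0 and 5 reads in the control and 0, 1 and 12 in the knockout, too few to compare at this depth.

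Prdm1 and Irf4, the transcription factors that drive plasma cell formation, differed from each other. Prdm1, which encodes BLIMP1 and is also made by T cells and gut epithelium, stood at 11, 10.3 and 11.4 CPM in the control and at 17.6, 17.4 and 19.6 CPM in the knockout. Its libraries agreed closely within each group, replicate 1 included, so that it had the smallest p of the members. The log2 fold change was 0.74 ± 0.16 (edgeR adjusted p = 0.0766), with an adjusted p of 0.00219 by DESeq2. Without knockout replicate 2 the adjusted p was 0.0391, in a fit where 11.2% of all tested genes passed. Irf4 stood at 4.14, 1.97 and 4.01 CPM and at 2.30, 5.11 and 3.43 CPM, with overlapping groups and a log2 fold change of 0.10 ± 0.43 (adjusted p = 0.942). It was -0.18 without control replicate 2 and -0.24 without knockout replicate 2. Tnfrsf13b, the receptor TACI, had 1 high library in each group, at 3.34 CPM in control replicate 1 and at 4.89 CPM in knockout replicate 2, with 0.521 to 0.998 CPM in the other 4. For Tnfrsf13b the log2 fold change was 0.55 ± 0.95 (adjusted p = 0.832), and -0.72 without knockout replicate 2. Sdc1, the plasma cell and epithelial proteoglycan syndecan-1, ranged from 168.6 to 232.5 CPM in the control and from 180.1 to 219.5 CPM in the knockout, with a log2 fold change of -0.07 ± 0.18 (adjusted p = 0.881). Cd38 ranged from 375.9 to 590.8 CPM and from 515.4 to 914.2 CPM, with a log2 fold change of 0.50 ± 0.28 (adjusted p = 0.444).

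Pigr (chromosome 1, 130826684 to 130852249), the epithelial receptor that carries IgA into the lumen, was the most abundant member and had no group difference beyond its spread. It stood at 3213, 3073 and 3801 CPM in the control and at 1849, 4716 and 3248 CPM in the knockout. Knockout replicate 1 lay below every control and replicate 2 above every control. The log2 fold change was -0.04 ± 0.36 (adjusted p = 0.973), and 0.24 without knockout replicate 1. Epcam, a general marker of epithelium, varied in the same libraries. The ratio of Pigr to Epcam reads was 1.52, 1.501 and 1.99 in the control and 1.85, 2.46 and 2.27 in the knockout, where replicate 1 was no longer below the controls.

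**Figure D3:**
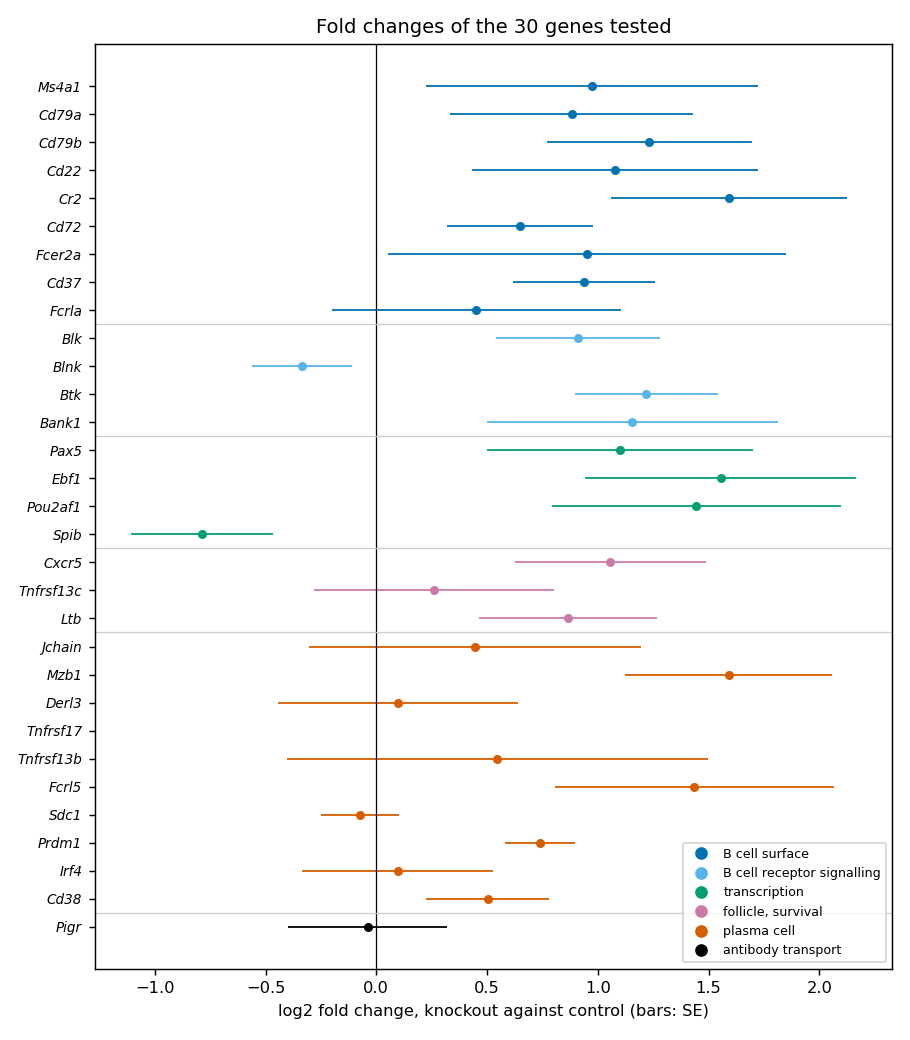
Log2 fold change of knockout against control (x axis, log2 units) for the 30 genes tested, with bars for the SE from edgeR, coloured by role; Tnfrsf17 had too few reads. No gene was past the threshold, 26 lie to the right of 0, and Spib is the farthest to the left.

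Follicular B genes and plasma cell genes were then set against each other within each library, since plasma cells lose most follicular genes as they form. The 13 follicular B genes included Spib, which other cells also make. Their median difference from the control mean was -0.33, 1.59 and 0.91 log2 units in knockout replicates 1, 2 and 3. For Jchain, Mzb1, Derl3, Tnfrsf17 and Fcrl5, taken as 5 core plasma cell genes although B cells also make Fcrl5, the median was -0.38, 1.35 and 0.89. The follicular minus plasma difference was thus 0.05, 0.24 and 0.02 in the knockout libraries and 0.22, -0.06 and -0.29 in the control libraries. The knockout values, except the highest, lay within the control range, and that one exceeded it by little. The plasma cell median was set by genes with few reads. In knockout replicate 1 it was the value of Tnfrsf17, with 0 reads, which depends on the pseudocount. In knockout replicates 2 and 3 it was that of Fcrl5, with 25 and 19 reads. The median hides a split in knockout replicate 1, where Jchain lay below every control and Mzb1 above every control. With a pseudocount of 0.1 in place of 0.5 the follicular minus plasma difference of knockout replicate 1 was 0.57. No test was run on this score, so no difference between genotypes is shown by it.

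**Figure D4:**
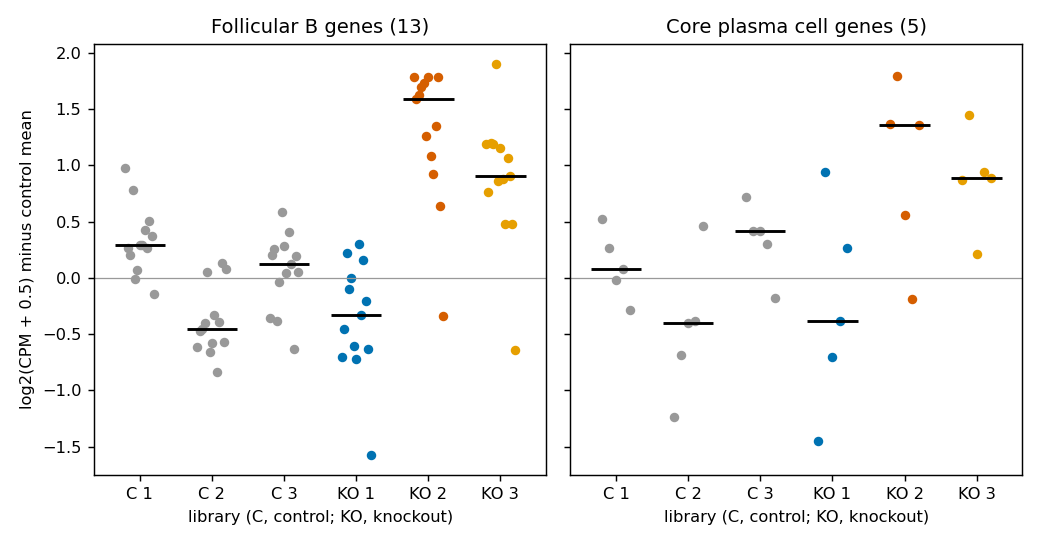
Each point is 1 gene in 1 library, as log2(CPM + 0.5) minus the control mean, for follicular B genes (left) and core plasma cell genes (right); black bars are medians. In both panels the medians of knockout replicates 2 and 3 lie above all control medians and that of replicate 1 lies within them.

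Further B lineage genes were mixed. As a base for the list counts here and below, 1.76% of all tested genes passed in edgeR and 16.0% had an unadjusted p under 0.05. With DESeq2, 6.47% of the genes it fitted passed. Of 13 further B lineage genes, 12 were tested and 0 passed in edgeR (1 with DESeq2, and 4 by unadjusted p under 0.05), with a median log2 fold change of 0.87. Relative to the control mean their median was -0.09, 1.22 and 0.63 log2 units in knockout replicates 1, 2 and 3. Bach2, Bcl11a and Ralgps2 had negative fold changes (-0.27, -0.33 and -0.29). Not all genes of the list shared the order of replicate 2 over 3 over 1: Bach2 was lowest of the knockout libraries in replicate 2. Cd40, a receptor for T cell help, and Pou2f2, an octamer-binding factor, also lacked that order and stood above the controls in every knockout library. Cd40 was at 2.49, 2.19 and 2.99 CPM in the knockout replicates and at 1.04 to 1.92 CPM in the control, and Pou2f2 had the smallest p of the list (2.32 ± 0.14 against 5.15 ± 0.47 CPM, SD, n = 3 each, adjusted p = 0.0803). Of 14 receptor signalling genes that are no members, 2 rose and 0 fell (DESeq2 called 3 higher, and 5 had an unadjusted p under 0.05). Fcgr2b, the inhibitory IgG receptor of B cells and myeloid cells, rose from 9.26 ± 1.74 to 35.6 ± 8.0 CPM (adjusted p = 0.0220). Rasgrp3, an activator of Ras, rose from 3.78 ± 0.47 to 11.6 ± 1.7 CPM (adjusted p = 0.0295). Both were called without knockout replicate 1 or 2, while neither was without any 1 control library or knockout replicate 3, at adjusted p = 0.104 to 0.156. Few genes of the whole table were called there: 31, 20 and 29 without control replicate 1, 2 or 3. Without knockout replicate 3 there were 15, against 278 with all libraries. Fcgr2b was highest in knockout replicate 1, at 43.4 CPM, where most B cell genes were lowest.

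Of 9 tested genes that guide B cells and plasma cells to the gut, 2 rose and 0 fell (DESeq2 called 4 higher). In edgeR 5 had an unadjusted p under 0.05, and 7 had positive fold changes. Cxcl12, which retains plasma cells and other leukocytes in tissue, rose from 25.4 ± 1.6 to 90.9 ± 18.5 CPM (adjusted p = 0.0111), and its receptor gene Cxcr4 from 3.87 ± 0.15 to 9.56 ± 0.72 CPM (adjusted p = 0.0371). Of 7 tested genes of follicle stroma and TNF family ligands, 1 rose (DESeq2 called 2, and 3 had an unadjusted p under 0.05). This was Cxcl13, the ligand of CXCR5, from 16.8 ± 4.1 to 83.5 ± 20.1 CPM (adjusted p = 0.0166). Its level was 105.3, 65.8 and 79.2 CPM in the knockout replicates, highest where Cxcr5 was lowest. Without any 1 control library or knockout replicate 3, 15 to 31 genes of the whole table were called, against 278 with all libraries. In those fits Cxcl12, Cxcl13 and Cxcr4 were not past the threshold, at adjusted p = 0.0573 to 0.199. Cxcr4 was also not past it without knockout replicate 1 (0.0589). Ccl19 and Ccl21a had 0 reads in all libraries; both have near-identical copies in the mouse genome, and the treatment of shared reads is not stated. Of 9 genes of M cells and follicle-associated epithelium, Ccl9, a chemokine, rose from 12.9 ± 1.3 to 29.5 ± 4.3 CPM (adjusted p = 0.0313). Gp2, the M cell receptor for bacteria, fell from 1.18 ± 0.03 CPM to 0 reads in all 3 knockout libraries (adjusted p = 0.0351). Neither call held without any 1 control library or knockout replicate 3 (adjusted p = 0.121 to 0.194). In this list DESeq2 called 3 higher and 2 lower, and 7 genes had an unadjusted p under 0.05 in edgeR, in either direction. Of 6 tested germinal centre genes, 0 passed (0 at an unadjusted p under 0.05, 0 by DESeq2). Rgs13, a brake on chemokine signalling, stood at 8.71, 5.44 and 10.8 CPM in the control and at 0, 3.21 and 1.68 CPM in the knockout, with an adjusted p of 0.323. Of 12 secretory genes used by plasma cells, 0 passed (1 at an unadjusted p under 0.05, 0 by DESeq2).

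Markers of other cells were compared in the same libraries. Of 11 T cell markers 0 passed in edgeR (2 with DESeq2, and 3 by unadjusted p under 0.05). Their median difference from the control mean, in log2 units, was 0.29, 1.18 and 0.72 in knockout replicates 1, 2 and 3. This is the order of the B cell genes, with a smaller range. Macrophage and dendritic cell markers, of which 2 of 10 rose (6 with DESeq2, and 8 by unadjusted p under 0.05), did not share that order, at 1.02, 0.82 and 0.94 log2 units. Of 7 neutrophil markers 4 rose (7 with DESeq2, and 7 by unadjusted p under 0.05). The sum of the 7 was 2.14 to 2.74 CPM in the control and 295.8, 37.1 and 157 CPM in the knockout, highest in replicate 1. Smooth muscle markers, of which 4 of 7 fell (7 with DESeq2, and 7 by unadjusted p under 0.05), stood at -1.36, -2.39 and -1.89 log2 units. They were lowest where B cell genes were highest. None of the 8 epithelial markers was called by edgeR (1 with DESeq2, and 1 by unadjusted p under 0.05). Their median, at -1.06, 0.14 and -0.45, also had the order of the B cell genes. In the whole table, 15 to 31 genes were called without knockout replicate 3 or any 1 control library, against 278 with all libraries. The calls in these lists were lost in those fits, except those of Actg2 and Des without control replicate 3. That of Mmp8 was also lost without knockout replicate 1. The part of each of these in the level of the B cell genes was not tested.

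**Figure D5:**
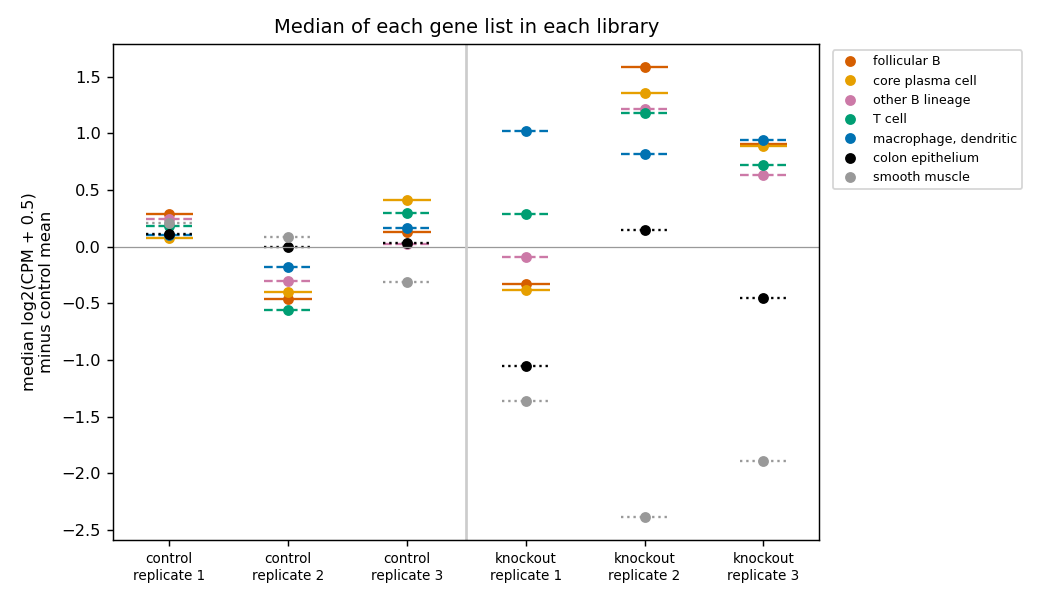
Median over each gene list of log2(CPM + 0.5) minus the control mean (y axis, log2 units) in each library. In the knockout libraries the B cell, plasma cell, T cell and colon epithelium medians share 1 order, with replicate 2 highest and replicate 1 lowest. The macrophage median is raised in all 3.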

How the data were processed

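Per the labels' protocols, total RNA of frozen colon went into standard Illumina libraries. The authors deposited a whole-number read count and an FPKM value per gene and library, per the file headers. For 100% of 11507 genes with ample reads, count over FPKM followed the library total within 0.01 log2 units. Tools listed, without roles, in the submitters' processing notes are edgeR, HISAT2 2.0.4 and StringTie 1.3.0, and the builds are mm8 and GRCh38. Coordinates in the table instead equalled GENCODE M21 (GRCm38) in start and end for 80.8% of 34267 identifiers and for 23 of the 31 members, so GRCm38 is used. The sources used here do not give the treatment of strand or of reads shared between copies.

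Counts were tested over the whole table with edgeR 4.0.16 (R 4.3.3): TMM, its low-count filter, a two-sided quasi-likelihood test between genotypes, Benjamini-Hochberg adjustment, threshold 0.05. CPM use TMM-scaled totals; 3 counts, the detection floor, are 0.174 to 0.219 CPM in a library. SE values were derived from the test statistic. Exact permutation of 3 against 3 libraries cannot reach 0.05 and was not used. Full values are given for follicular B and core plasma cell genes with at least 10 reads throughout a group, and for Pigr; list genes named are those of smallest p or, where the text says what sets them apart, chosen after their values were seen. Members and lists were chosen with earlier results of these data known. Promoter sequences are RefSeq's on GRCm38.p6; 26 members matched. Alternatives were DESeq2 1.42.0, RLE scaling, no filter, limma 3.58.1 on log2(FPKM + 1) and log2(FPKM + 0.1), a block on replicate number, and omission of each library in turn. The edgeR and limma steps were tested on simulated data.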

Additional observations from a re-analysis of the deposited data

How the results depend on the processing

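Across 13 alternatives, 23 of 30 tested members kept the sign of their log2 fold change in each, while Tnfrsf13c, Jchain, Derl3, Tnfrsf13b, Sdc1, Irf4 and Pigr, whose changes were near 0 or wide in error, turned somewhere. Sdc1 turned to 0.0101 with limma on log2(FPKM + 1), with and without its filter, and to 0.0108 on log2(FPKM + 0.1). With 1 library left out, the log2 fold change ran from -0.0393 to 0.62 for Tnfrsf13c, -0.10 to 0.91 for Jchain, -0.29 to 0.46 for Derl3, -0.72 to 1.82 for Tnfrsf13b, -0.24 to 0.33 for Irf4 and -0.40 to 0.24 for Pigr. The count of members past the threshold was 0 in edgeR, with either scaling and with or without the filter, and in each limma fit, 3 with DESeq2, and 0 to 1 with 1 library left out. Of all genes tested, 278 passed, 1424 with DESeq2, and 15 to 1825 with 1 library left out. The median log2 fold change of the members, 0.90, ran from 0.38 (log2(FPKM + 1), which shrinks low genes) to 1.11 (without knockout replicate 1), and was 0.40 without knockout replicate 2. With the replicate number as a block, 9 genes passed in the whole table and 0 members. Same-numbered libraries deviated from their group means with r = 0.05, -0.17 and 0. Because knockout replicate 3 was close to a weighted sum of the others, the deviations of knockout replicates 1 and 2 mirrored each other. These values therefore cannot show whether the numbers pair the libraries. The follicular minus plasma difference of knockout replicate 1 was 0.57 with a pseudocount of 0.1 and 0.31 on FPKM values. With 1 control library left out, it ran from 0.24 to 0.61 in knockout replicate 2. Causes were not tested. Members with under 20 reads in a library, such as Fcer2a, Fcrl5 and Tnfrsf17, were limited by depth.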

Other observations

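Antibody constant regions were read from the same libraries. Igha, the heavy chain of IgA, stood at 482.7, 141 and 623.7 CPM in control replicates 1, 2 and 3 and at 605.2, 1071 and 833.1 CPM in knockout replicates 1, 2 and 3. Igkc, the kappa light chain, stood at 240.5, 54.3 and 353.2 CPM and at 290.8, 625.2 and 474 CPM. Of 11 tested constant regions 0 passed in edgeR (2 with DESeq2, and 4 by unadjusted p under 0.05). Ighd, the membrane IgD chain of naive B cells, came closest, with 2.04 ± 0.61 against 7.90 ± 3.52 CPM (SD, n = 3 each, edgeR adjusted p = 0.0900). Constant regions resemble each other in sequence, which leaves their values uncertain.

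The ratio of Jchain to Igha was lower in every knockout library than in any control, and by far the lowest in knockout replicate 1. There were 0.379, 0.381 and 0.337 Jchain reads per Igha read in the control replicates, and 0.308 and 0.279 in knockout replicates 2 and 3. In knockout replicate 1 the ratio was 0.0764. Igha there was within the control range while Jchain was below all controls. Mzb1 and Igkc did not fall below the controls relative to Igha in that library. There were 0.00585 Mzb1 reads per Igha read in knockout replicate 1, and 0.00634 and 0.00629 in replicates 2 and 3. Each lay above the control range of 0.00370 to 0.00575, replicate 1 by little, the reverse of Jchain. For Igkc the ratio was 0.481 in knockout replicate 1, within the control range of 0.385 to 0.566. It was 0.584 and 0.569 in knockout replicates 2 and 3. These ratios were computed after the values were seen, rest on single libraries and have no test.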
